A study of Rattus norvegicus with 10 samples.

Results

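The transcripts described here encode the plasma proteins that hepatocytes secrete: proteins of the acute phase response, complement, clotting and transport in blood. The list holds 40 genes, and a gene was followed through the probe set that is brightest on average over all 10 arrays. In this way 36 of the 40 were measured alone, out of 14217 genes on the array: 14 acute phase, 8 complement, 10 clotting and 4 carrier genes. Probe sets of F7 and F11 are not named in the annotation used here, and those of Cfb and Kng1 are shared with related genes and are given apart.

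The livers were those of female rats of the Harlan Sprague-Dawley strain, 5 given indole-3-carbinol (I3C) and 5 given vehicle. I3C, a breakdown product of a glucosinolate of cabbage and its relatives, was dosed at 300 mg per kg with corn oil as its carrier. Vehicle rats had the carrier only, at 0 mg per kg. Both were gavaged 5 days per week for 13 weeks per the labels, while the series itself is described as a longer toxicology study, and age is not among the labels. Levels are deposited log2 expression values, on which a difference of 1 is a 2-fold difference. They were made with the robust multi-array average (RMA) from 3' expression arrays, whose medians lay between 6.21 and 6.29. With 5 arrays in a group, precision is set by that small number. The labels number the samples within a group without naming animals, and a p-value therefore covers only the spread among the samples as labelled.

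Most plasma proteins other than antibodies are made by hepatocytes, and in inflammation interleukin 6 and interleukin 1 change their transcription through STAT3, C/EBP and NF-kappaB factors. Positive acute phase proteins then rise and negative ones, such as albumin, fall. The pattern differs by species: in rats A2m is a strong responder, whereas Crp is abundant in plasma without inflammation. I3C is turned into ligands of the aryl hydrocarbon receptor in the stomach, and this receptor is known to act on many liver genes.

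In I3C livers 3 of the 36 measured members rose and 1 fell. The acute phase genes Crp and Orm1 and the terminal complement gene C5 rose, and Masp1, a protease of the lectin pathway of complement, fell. Folds were small, from 1.28 to 1.48. A call here is a two-sided limma test with a Benjamini-Hochberg adjusted p under 0.05 over all 31042 probe sets. Of all 14217 genes, 3.32% rose, 3.11% fell and 6.43% were called in either direction. The members' count of 4 of 36 is to be read against these shares. The median difference was -0.06 over the members, against -0.00 over all genes, and 9 members were higher and 27 lower in I3C livers, where 6912 and 7305 of all genes were. The groups differed in 2 RNA quality measures. With the GAPDH one as a covariate none of the 4 passed (limma adjusted p from 0.0892 to 0.159). With the beta-actin one C5 alone did (adjusted p = 0.0400). Under GAPDH the differences of Crp, Orm1, C5 and Masp1 kept 121%, 115%, 103% and 108% of their size. Their SEs grew, that of Crp from 0.07 to 0.11. Under beta-actin the differences of Crp and Orm1 were smaller, at 0.27 and 0.38. In whole liver, fewer cells of a type and less RNA per cell cannot be told apart.

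The members' median SD within a group was 0.07, against 0.14 over all genes. Of the 32 members that did not pass, 26 had a 95% interval inside a 1.25-fold difference in either direction. The other 6 were A2m, Lcn2, Itih1, C6, C4bpa and F5. All these intervals bound the differences as measured on the arrays. By mean level, 28 members lay at or above the 99th percentile of probe sets. In vehicle arrays 14 members had a mean of at least 14, while the highest value on any array was 15.12. Folds of the brightest probe sets are compressed by RMA, and their differences in transcript level may be larger than these intervals allow. This was not tested.

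**Figure D1:**
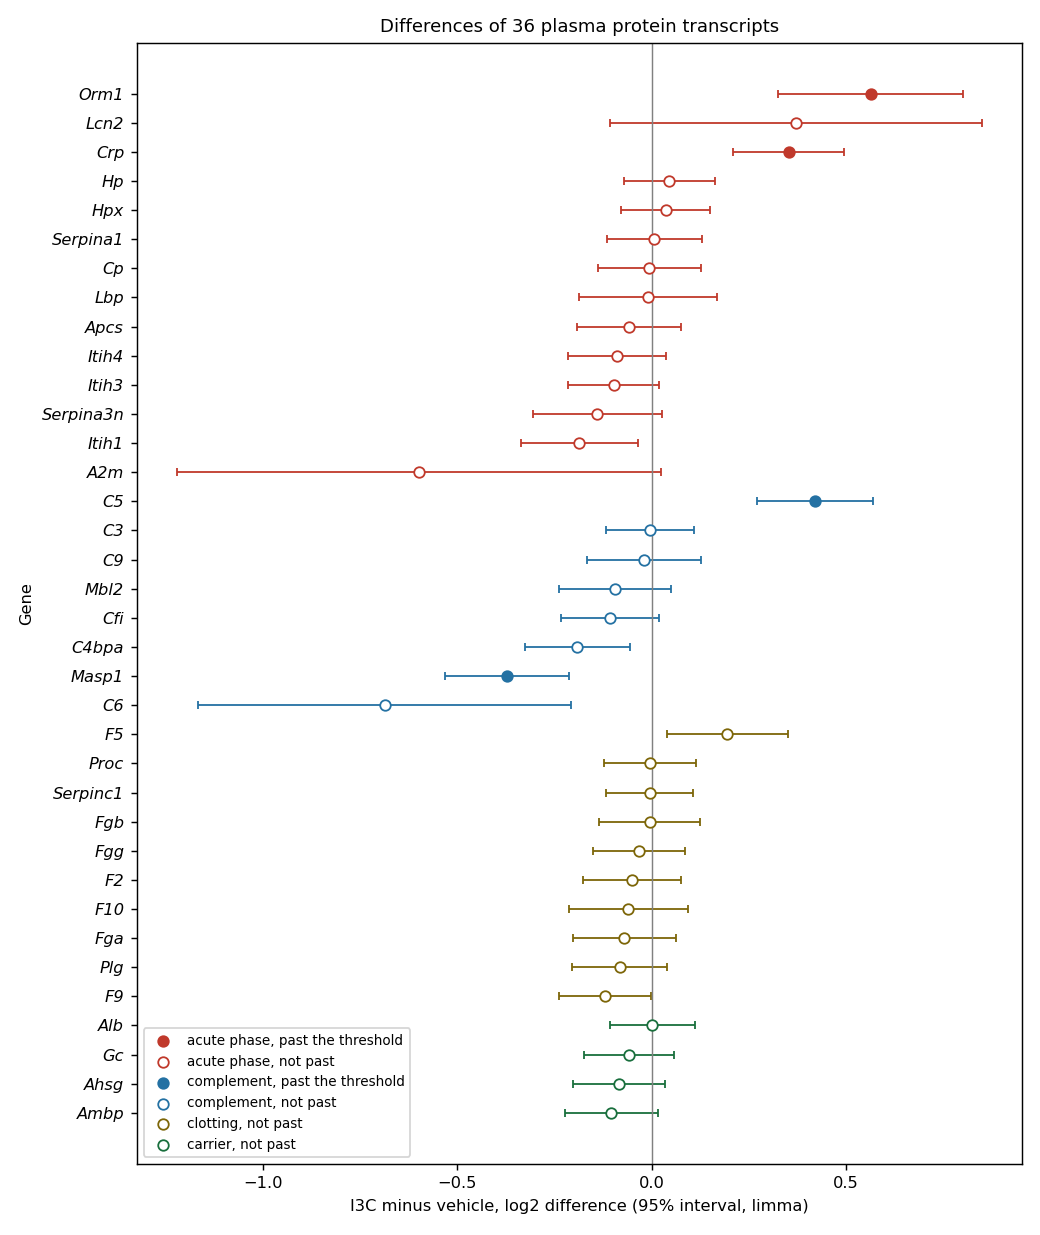
Differences of the 36 measured members between I3C and vehicle livers, on the log2 scale, with 95% intervals from limma (n = 5 per group); genes are grouped by role and sorted by size, and filled points passed the threshold. Orm1, Crp and C5 lie to the right of 0 and Masp1 to the left, while most clotting and carrier genes lie within a narrow band around 0.

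The 4 members that passed are shown first by the sequence around their start sites, since C/EBP and STAT3 factors and the aryl hydrocarbon receptor, named above, act at such sites. Each window is RefSeq sequence of assembly GRCr8, from 250 bases before to 50 bases after the annotated start, 5′ to 3′ along the gene. Capitals mark matches, on either strand, to the C/EBP motif TTNNGNAA, the STAT3 motif TTCNNNGAA or the aryl hydrocarbon receptor core GCGTG, whose reverse complement is CACGC. The Crp window lies at chr13:87693812-87694111 on the plus strand and that of Orm1 at chr5:81788259-81788558 on the plus strand. The C5 window lies at chr3:38759419-38759718 on the minus strand and that of Masp1 at chr11:90839472-90839771 on the plus strand.
Crp: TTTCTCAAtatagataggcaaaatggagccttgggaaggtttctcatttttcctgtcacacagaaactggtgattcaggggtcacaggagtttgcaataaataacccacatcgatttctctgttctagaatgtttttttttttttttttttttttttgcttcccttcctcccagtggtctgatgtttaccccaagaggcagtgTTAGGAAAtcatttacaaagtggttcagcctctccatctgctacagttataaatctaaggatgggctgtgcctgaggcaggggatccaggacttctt
Orm1: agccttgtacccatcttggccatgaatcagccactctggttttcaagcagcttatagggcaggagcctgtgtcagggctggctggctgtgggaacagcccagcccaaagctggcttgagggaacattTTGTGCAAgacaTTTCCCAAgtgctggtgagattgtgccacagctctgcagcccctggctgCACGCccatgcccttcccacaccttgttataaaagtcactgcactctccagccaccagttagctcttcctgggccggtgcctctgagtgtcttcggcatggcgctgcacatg
C5: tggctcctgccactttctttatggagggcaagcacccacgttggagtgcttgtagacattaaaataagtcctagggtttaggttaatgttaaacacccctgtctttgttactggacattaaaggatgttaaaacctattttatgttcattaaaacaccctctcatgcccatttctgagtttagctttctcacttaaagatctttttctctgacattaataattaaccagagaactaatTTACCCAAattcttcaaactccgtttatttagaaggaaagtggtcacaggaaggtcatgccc
Masp1: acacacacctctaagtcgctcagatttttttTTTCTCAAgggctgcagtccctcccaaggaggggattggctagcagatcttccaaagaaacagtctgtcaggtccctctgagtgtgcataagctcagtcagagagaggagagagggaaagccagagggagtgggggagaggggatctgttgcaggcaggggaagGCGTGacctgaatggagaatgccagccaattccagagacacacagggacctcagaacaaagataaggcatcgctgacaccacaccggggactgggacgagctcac

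All 4 windows hold a C/EBP match, none of the 4 holds a STAT3 match, and those of Orm1 and Masp1 hold the GCGTG core. In Orm1 the core begins 62 bases before the start and the 2 C/EBP matches 123 and 111 bases before it. In Masp1 the core begins 55 bases before the start. Promoter windows were found for 32 of the 36 members: 23 held a C/EBP match, 5 the STAT3 motif and 5 the GCGTG core. These are 71.9%, 15.6% and 15.6% of the members, against 41.3%, 8.87% and 29.7% of all 33469 windows in the table. The STAT3 matches lay in Fga, Fgb, F9, Itih4 and Serpina3n, of which none passed the test, and the cores in Ahsg, C4bpa, Masp1, Mbl2 and Orm1. No match of one motif overlapped a match of another in these windows. The windows compared were not matched for base composition or for expression in liver. The part of either in these shares was not tested. A match is a run of letters and not a measured binding site.

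Among the acute phase genes 2 of 14 rose and none fell, with a median difference of -0.01. Crp encodes C-reactive protein, a pentraxin that binds phosphocholine. Its level was 14.19, 14.16, 14.16, 14.17 and 14.26 in the I3C arrays, against 13.84, 13.91, 13.71, 13.75 and 13.98 in the vehicle arrays. Every I3C array lay above every vehicle array, and the I3C arrays lay closer together. The difference was 0.35 ± 0.07 (SE, n = 5 per group, limma adjusted p = 0.00793), a 1.28-fold rise. Of all genes, 4.61% had all I3C arrays above all vehicle arrays and 4.07% all below.

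Orm1, the alpha-1-acid glycoprotein, binds basic drugs and is a major positive acute phase protein of the rat. It stood at 13.54, 13.07, 13.40, 13.57 and 13.58 in I3C arrays, against 12.74, 12.84, 12.94, 12.70 and 13.13 in vehicle arrays. The groups overlapped by 1 array, since I3C 2 lay just below vehicle 5. The difference of 0.56 ± 0.11 (SE, limma adjusted p = 0.0103), a 1.48-fold rise, was the largest rise among the members.

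A2m and Lcn2, both known for wide swings in inflammation, did not pass. Of the 14 acute phase genes they had the largest SEs. A2m, the protease inhibitor alpha-2-macroglobulin, was measured at 5.50, 5.59, 5.33, 6.47 and 5.32 in I3C arrays, against 5.53, 6.14, 6.02, 6.24 and 7.27 in vehicle arrays. Its probe set was dim, at the 44.6th percentile by mean level, and was left out where a mean of at least 6 was required. Vehicle 5 was the highest of all and I3C 4 stood above the other I3C arrays, so that the groups overlapped. The difference was -0.60 ± 0.29 (SE, adjusted p = 0.337). It was -0.34 without vehicle 5 (adjusted p = 0.431) and -0.80 without I3C 4 (adjusted p = 0.146). Lcn2 encodes lipocalin 2, which binds bacterial siderophores. Its levels were 7.75, 7.44, 7.53, 8.64 and 7.21 in I3C arrays, against 7.56, 7.27, 7.18, 7.07 and 7.64 in vehicle arrays. The same I3C array, number 4, stood highest. The difference was 0.37 ± 0.22 (SE, adjusted p = 0.478), and 0.14 ± 0.13 without that array.

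The other 10 acute phase genes differed by -0.19 to 0.04. Hp and Hpx, which bind free haemoglobin and haem, lay at 14.47 ± 0.04 and 14.13 ± 0.03 in I3C livers and at 14.43 ± 0.03 and 14.10 ± 0.03 in vehicle livers (SD, n = 5). Serpina1, the inhibitor of neutrophil elastase, was 14.49 ± 0.04 in I3C livers and 14.48 ± 0.06 in vehicle livers. The copper-carrying ferroxidase Cp was 13.98 ± 0.07 in I3C livers and 13.99 ± 0.07 in vehicle livers, and neither of its dimmer probe sets passed. Lbp, which hands lipopolysaccharide to CD14, was 10.61 ± 0.05 in I3C livers and 10.62 ± 0.17 in vehicle livers. Apcs, the pentraxin serum amyloid P, differed by -0.06 and the serine protease inhibitor Serpina3n by -0.14.

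The heavy chains of the inter-alpha-inhibitor family, Itih1, Itih3 and Itih4, were each lower in I3C livers without passing. Itih1 averaged 13.32 ± 0.10 in I3C livers and 13.51 ± 0.09 in vehicle livers (SD, n = 5), a difference of -0.19 ± 0.07 (SE, limma adjusted p = 0.181). For Itih3 it was -0.10 ± 0.05 and for Itih4 -0.09 ± 0.06. In Itih1 and Itih3 all I3C arrays lay below all vehicle arrays. This was so for 6 of the 36 members in that direction (Itih1, Itih3, C4bpa, Masp1, F9 and Ahsg) and for 2 in the other (Crp and C5), against 4.07% and 4.61% of all genes, or 8.67% in either direction.

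**Figure D2:**
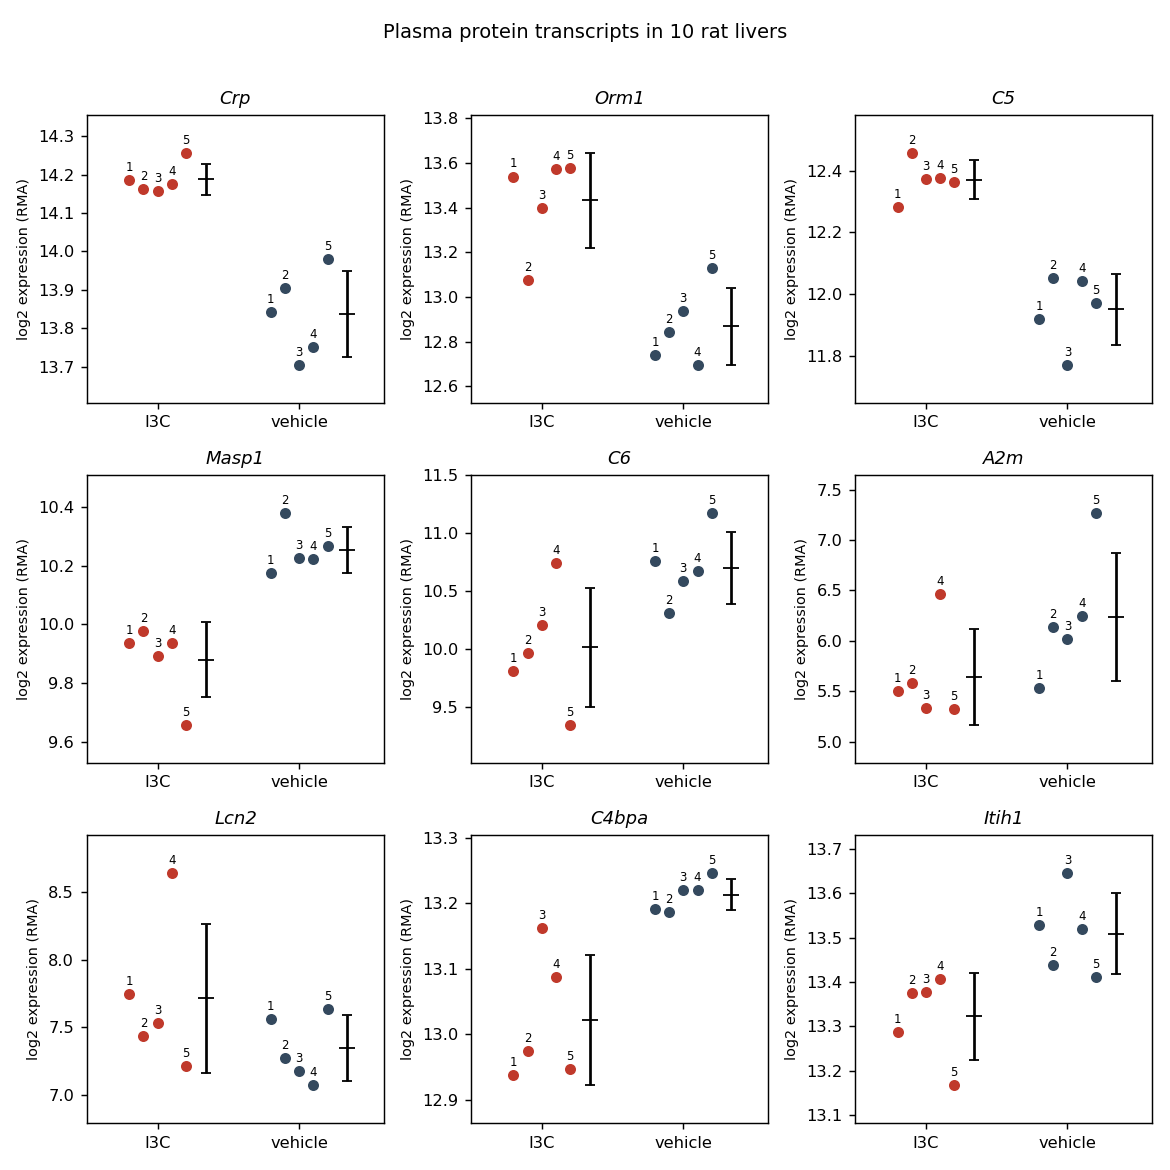
Log2 expression of 9 members by array, with I3C livers left and vehicle livers right; points are arrays with their replicate number and the bar gives the mean and SD (n = 5). The axes differ between panels and do not start at 0. In Crp and C5 all I3C arrays lie above all vehicle arrays and in Masp1, C4bpa and Itih1 below, while A2m, Lcn2 and C6 spread widely within groups.

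Among the complement genes 1 of 8 rose and 1 fell, and the median difference was -0.10, with 1 gene higher and 7 lower. C5, the precursor of the anaphylatoxin C5a and the first part of the membrane attack complex, gave 12.28, 12.46, 12.37, 12.38 and 12.36 in I3C arrays. In vehicle arrays it gave 11.92, 12.05, 11.77, 12.04 and 11.97. The groups did not overlap, and the rise was 0.42 ± 0.07 (SE, n = 5 per group, limma adjusted p = 0.00327), or 1.34-fold.

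Masp1 cleaves and activates other complement proteases after mannose-binding lectin or a ficolin has bound sugars on a microbe. Its brightest probe set stood at 9.94, 9.98, 9.89, 9.94 and 9.66 in I3C arrays, against 10.17, 10.38, 10.22, 10.22 and 10.27 in vehicle arrays. All I3C arrays were lower, and the difference was -0.37 ± 0.07 (SE, limma adjusted p = 0.0107). The other 2 probe sets of Masp1, both dimmer, did not pass: one differed by -0.42 ± 0.12 (adjusted p = 0.0603) and one by 0.06 ± 0.17 (adjusted p = 0.918). Over the mean of the 3 probe sets the difference was -0.24 ± 0.10 (adjusted p = 0.171), so that the call rests on 1 probe set.

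C6, which joins C5 in the membrane attack complex, had the largest difference of all members and did not pass. It was 9.81, 9.96, 10.21, 10.75 and 9.34 in I3C arrays, against 10.76, 10.31, 10.59, 10.67 and 11.17 in vehicle arrays. I3C 4 lay among the vehicle arrays and the other I3C arrays lay below them all. The difference was -0.69 ± 0.22 (SE, limma adjusted p = 0.112). Without I3C 4 it was -0.87 ± 0.18 and passed (adjusted p = 0.0242), whereas without I3C 5 it was -0.52 ± 0.20 (adjusted p = 0.225). With the GAPDH measure of RNA quality as a covariate it was -0.40 ± 0.36 (adjusted p = 0.624). C5, which passed, and C6, which did not, lay on opposite sides of 0. C5 was above every vehicle array in all 5 I3C arrays and C6 below every vehicle array in 4 of the 5. The other terminal components measured, C8a, C8b, C8g and C9, differed by -0.24, -0.08, -0.08 and -0.02, and none passed.

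C3, the hub of the cascade, was 14.61 ± 0.02 in I3C livers and 14.62 ± 0.03 in vehicle livers (SD, n = 5), with a 95% interval of the difference from -0.12 to 0.11. C9, which forms the pore, differed by -0.02, the recognition lectin Mbl2 by -0.09 and the inhibitory protease Cfi by -0.11. C4bpa, the alpha chain of the C4b-binding protein, was 13.02 ± 0.10 in I3C livers and 13.21 ± 0.02 in vehicle livers. Its difference of -0.19 ± 0.06 (SE, adjusted p = 0.116) did not pass although the groups did not overlap. Cfb, the protease of the alternative pathway, is read by 4 probe sets that are annotated to C2 as well. They differed by -0.26 to -0.15 and none passed (adjusted p from 0.198 to 0.259).

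Of the 10 clotting genes, with a median difference of -0.04, none passed, while an unadjusted p under 0.05 was reached by 1 in the higher and 1 in the lower direction, and by 9.62% and 10.2% of all genes (19.8% in either direction). The fibrinogen chains Fga, Fgb and Fgg differed by -0.07 ± 0.06, -0.01 ± 0.06 and -0.03 ± 0.05 (SE). A dimmer probe set of Fga differed by -0.21 ± 0.08 (SE, limma adjusted p = 0.217) and those of Fgb by 0.06 and 0.08. Prothrombin, F2, was 13.79 ± 0.03 in I3C livers and 13.84 ± 0.08 in vehicle livers (SD, n = 5). The cofactor F5 was the only one of the 10 that lay higher in I3C livers, at 11.79, 11.89, 11.91, 11.94 and 11.79 in I3C arrays, against 11.61, 11.73, 11.85, 11.63 and 11.53 in vehicle arrays. Only vehicle 3 reached into the I3C range, and the difference of 0.19 ± 0.07 (SE, limma adjusted p = 0.174) did not pass. With the GAPDH covariate F5 was at 0.06 ± 0.11, and F2, F10 and Plg were at 0.02, 0.01 and 0.00, also on the higher side of 0.

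F9, the haemophilia B factor, differed by -0.12 ± 0.05 (SE, adjusted p = 0.305) with no overlap between groups. F10 differed by -0.06, and plasminogen, Plg, the precursor of the fibrin-cleaving enzyme, by -0.08. The anticoagulants Proc (protein C) and Serpinc1 (antithrombin) lay within 0.01 of 0, with 95% intervals from -0.12 to 0.11 for both. The kininogen probe set that Kng1 shares with Kng2 and Kng2l1 was 14.08 ± 0.10 in I3C livers and 14.11 ± 0.10 in vehicle livers (SD, n = 5). Of 3 probe sets annotated to Kng2l1 alone none passed, with differences from -0.11 to 0.04. 

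None of the 4 carriers passed on its brightest probe set, and their median difference was -0.07. Albumin, Alb, was 15.11 ± 0.01 in I3C livers and 15.11 ± 0.01 in vehicle livers (SD, n = 5), at the top of the table, whose highest value was 15.12. Its difference was 0.00 ± 0.05 (SE) with a 95% interval from -0.11 to 0.11. The fetuin Ahsg differed by -0.08 ± 0.05 and Ambp, the precursor of alpha-1-microglobulin and bikunin, by -0.10 ± 0.05. For the vitamin D carrier Gc the bright probe set differed by -0.06 ± 0.05 (SE, adjusted p = 0.699). A dimmer probe set of the same gene fell, with 11.17 ± 0.18 in I3C arrays and 11.53 ± 0.07 in vehicle arrays (SD, n = 5). The groups did not overlap, and the difference was -0.35 ± 0.08 (SE, limma adjusted p = 0.0309). This probe set is named because of its value. Members with several probe sets of their own have 9 further probe sets, and none of these passed.

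**Figure D3:**
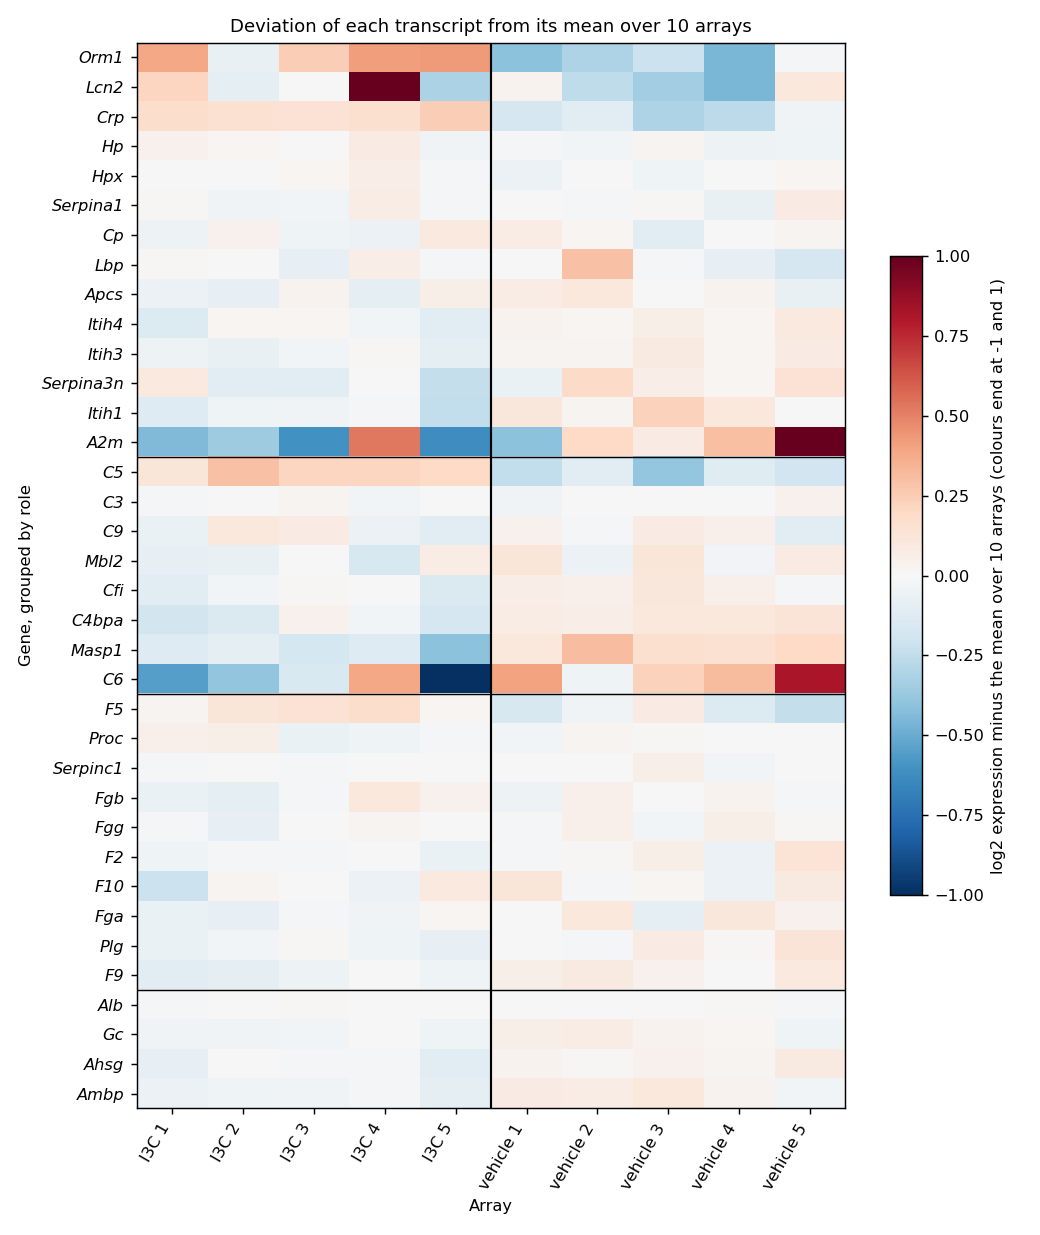
Deviation of each member from its own mean over 10 arrays, on the log2 scale, with I3C arrays left of the black line and vehicle arrays right; rows are grouped by role. Crp, C5 and, except in I3C 2, Orm1 are red on the I3C side, Masp1 is blue there, and the strongest single cells are A2m in vehicle 5, C6 in I3C 5 and Lcn2 in I3C 4.

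Single livers stood out in few members. A2m, Lcn2 and C6 made up all but 1 of the deviations of at least 0.3 from a group mean, the other being Orm1 in I3C 2. Vehicle 5 deviated in this way in A2m and C6, and I3C 4 and I3C 5 each in A2m, Lcn2 and C6. In I3C 4 all 3 were above the group mean and in I3C 5 all 3 below. No vehicle array had Lcn2 that far from the group mean. The neutrophil markers listed were dim in all arrays, at mean levels from 4.14 to 6.07, and their summed level was 7.62 on the log2 scale in I3C 4, inside the range of the vehicle arrays, whose highest was 7.83.

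A measure of RNA quality differed between the groups. The signal of the GAPDH control at its 3' end minus that at its 5' end was 0.23 ± 0.05 in I3C arrays and 0.45 ± 0.12 in vehicle arrays (SD, n = 5), with no overlap. A two-sided exact permutation test over the 252 splits of the arrays gave its smallest possible p, 0.00794, and 0.0159 adjusted over this and the beta-actin measure. The beta-actin difference was 1.40 ± 0.14 in I3C arrays and 1.59 ± 0.12 in vehicle arrays (exact permutation p = 0.0476). With the GAPDH measure as a covariate the differences were 0.43 ± 0.11 for Crp, 0.65 ± 0.18 for Orm1, 0.43 ± 0.11 for C5 and -0.40 ± 0.12 for Masp1 (SE). None of the 4 passed then, at adjusted p from 0.0892 to 0.159, and the part of RNA quality in these results was not tested. For A2m the difference was 0.01 ± 0.44 with that covariate. With the beta-actin measure instead, Crp was at 0.27 ± 0.08 (adjusted p = 0.119), Orm1 at 0.38 ± 0.12 (adjusted p = 0.147) and Masp1 at -0.40 ± 0.10 (adjusted p = 0.0592), while C5 stayed past the threshold at 0.41 ± 0.09 (SE, limma adjusted p = 0.0400).

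Beyond the listed members, 17 other complement genes were measured, of which none rose and 3 fell, with a median difference of -0.08. Counts of this and the later lists are to be read against all genes, of which 3.32% rose and 3.11% fell. The complement genes C1qa, C1qb and C1qc are counted with the macrophage markers below and not here. C1qa fell by 0.37 on the log2 scale (SE 0.08, limma adjusted p = 0.0197). C1qb and C1qc differed by -0.23 and -0.34 and did not pass. C4bpb, the beta chain that pairs with C4bpa, gave 12.15, 12.21, 12.29, 12.35 and 12.23 in I3C arrays, against 12.49, 12.51, 12.49, 12.60 and 12.51 in vehicle arrays. The groups did not overlap, and the difference was -0.27 ± 0.06 (SE, limma adjusted p = 0.0186), so that both chains of this inhibitor lay lower while only the beta chain passed. None of C4bpb, Cfp and Fcna passed with the GAPDH or the beta-actin measure as a covariate. The C4bpb call ended without vehicle 4, I3C 2 or I3C 5, at adjusted p from 0.0504 to 0.0529.

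Cfp, or properdin, which stabilises the alternative pathway convertase, averaged 8.95 ± 0.17 in I3C livers and 9.38 ± 0.15 in vehicle livers (SD, n = 5). It fell by 0.43 on the log2 scale (SE 0.10, limma adjusted p = 0.0214), and a second probe set fell by 0.32 (adjusted p = 0.0267). Fcna, a ficolin that starts the lectin pathway, averaged 9.35 ± 0.14 in I3C livers and 9.69 ± 0.12 in vehicle livers, a difference of -0.34 ± 0.08 (SE, adjusted p = 0.0316). The Cfp call ended without vehicle 2, I3C 4 or I3C 5, at adjusted p from 0.0538 to 0.0597. The Fcna call ended without vehicle 2, vehicle 3, I3C 1, I3C 2, I3C 4 or I3C 5, at adjusted p from 0.0514 to 0.0725.

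Both Cfp and Fcna are known to be made by macrophages and related myeloid cells. Of 9 measured macrophage markers all were lower in I3C livers, and Cd5l and C1qa passed. Their summed level ran from 12.70 to 13.10 in I3C arrays and from 13.19 to 13.52 in vehicle arrays, on the log2 scale and with no overlap. Its part in the Cfp and Fcna results was not tested. Of 8 hepatocyte markers Tat and Apoa1 rose and Cyp2e1 fell. Their summed level, in which Alb is the largest term, ran from 16.87 to 16.97 in I3C arrays and from 16.91 to 16.96 in vehicle arrays. None of 10 lymphocyte, 7 endothelial, 7 neutrophil or 5 cholangiocyte markers passed, and 2 of 8 stellate cell markers, Lrat and Ecm1, fell. The summed stellate level did not overlap either, at 11.89 to 12.15 in I3C arrays and 12.20 to 12.45 in vehicle arrays. In I3C livers 7 of 8 stellate and 6 of 7 endothelial markers were lower. So were 5 of 10 lymphocyte, 3 of 7 neutrophil and 1 of 5 cholangiocyte markers. A lower marker sum was thus not particular to macrophages.

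Of 17 other clotting genes 2 rose and none fell, with a median difference of -0.02. Pros1, protein S, is the cofactor of the protein C that Proc encodes, and in plasma it circulates partly bound to the C4b-binding protein. It stood at 11.95, 11.80, 11.86, 11.79 and 11.75 in I3C arrays, against 11.38, 11.49, 11.49, 11.57 and 11.51 in vehicle arrays. Every I3C array was higher, and the rise was 0.34 ± 0.06 (SE, limma adjusted p = 0.00724). With the GAPDH covariate it was 0.37 ± 0.10 and did not pass (adjusted p = 0.133). Mcfd2, with Lman1 part of the receptor that carries F5 and factor VIII out of the endoplasmic reticulum, averaged 12.17 ± 0.09 in I3C livers and 11.91 ± 0.07 in vehicle livers (SD, n = 5). It rose by 0.26 ± 0.07 (SE, adjusted p = 0.0396). The call held without vehicle 5 or without I3C 4 and ended without any of the other 8 arrays, at adjusted p from 0.0653 to 0.104. It also ended with the GAPDH covariate (adjusted p = 0.109).

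Of 13 other carrier genes 1 rose and 2 fell, with a median difference of -0.04. Apoa1, the main protein of high density lipoprotein, gave 14.08, 14.10, 14.01, 14.22 and 14.11 in I3C arrays, against 13.81, 13.76, 13.59, 13.62 and 13.87 in vehicle arrays, a rise of 0.38 ± 0.07 (SE, limma adjusted p = 0.00883). Afm, the vitamin E carrier afamin and a relative of albumin and Gc, averaged 12.36 ± 0.17 in I3C livers and 12.84 ± 0.16 in vehicle livers (SD, n = 5). It differed by -0.47 ± 0.10 (SE, adjusted p = 0.0142). With the GAPDH covariate neither passed, with Apoa1 at 0.42 ± 0.12 (adjusted p = 0.126) and Afm at -0.31 ± 0.15 (adjusted p = 0.374). The thyroxine-binding globulin Serpina7 stood apart from every member in size, at 8.03, 9.19, 9.20, 8.66 and 8.84 in I3C arrays, against 11.25, 11.44, 10.54, 11.83 and 10.37 in vehicle arrays. All I3C arrays were lower by far, and the difference was -2.30 ± 0.28 (SE, limma adjusted p = 0.000512). The negative acute phase protein Ttr, which carries thyroxine too, was 14.50 ± 0.03 in I3C livers and 14.54 ± 0.04 in vehicle livers.

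The signalling genes upstream of the acute phase response gave 2 rises and 1 fall among 19 measured, with a median difference of -0.03. Il1r1, the receptor of interleukin 1, lay between 11.13 and 11.95 in I3C arrays, against 9.80 to 10.17 in vehicle arrays, so that the groups lay far apart. The rise was 1.58 ± 0.14 (SE, limma adjusted p = 5.31e-05), or 3.00-fold, and both other probe sets of Il1r1 rose, by 0.86 and 1.40. Cebpb, the C/EBP factor named for its part in interleukin 6 responses, gave 10.31, 10.33, 10.53, 10.27 and 10.16 in I3C arrays, against 9.51, 9.75, 9.74, 9.47 and 9.69 in vehicle arrays.

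The Cebpb groups did not overlap, and the rise was 0.69 ± 0.08 (SE, limma adjusted p = 0.000489). Tyk2, a Janus kinase of cytokine receptors, averaged 8.75 ± 0.11 in I3C livers and 9.18 ± 0.10 in vehicle livers (SD, n = 5), a difference of -0.42 ± 0.07 (SE, adjusted p = 0.00536). With the GAPDH covariate Tyk2 was at -0.49 ± 0.12 and did not pass (adjusted p = 0.0898), while Il1r1 and Cebpb did. Genes named after their values were seen include Il6, Stat3, Socs3, Cebpa and Cebpd. Il6 was dim, at 3.95 ± 0.10 in I3C livers and 3.96 ± 0.20 in vehicle livers. Stat3 differed by -0.15 ± 0.18 and its target Socs3 by 0.13 ± 0.10 (SE), and neither passed. The other C/EBP factors listed were lower in I3C livers without passing. Cebpa differed by -0.42 ± 0.11 (SE, limma adjusted p = 0.0567) and Cebpd by -0.16 ± 0.09 (SE, limma adjusted p = 0.399). For Cebpa all I3C arrays lay below all vehicle arrays, as for 4.07% of all genes.

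Among 9 transcription factors of hepatocytes none rose and 1, the bile acid receptor, fell, with a median difference of -0.32. The 2 brightest were Hnf4a, at 12.47 ± 0.12 in I3C livers and 12.48 ± 0.08 in vehicle livers (SD, n = 5), and Onecut1, at 11.06 ± 0.62 in I3C livers and 11.93 ± 0.35 in vehicle livers. The Onecut1 difference of -0.87 ± 0.26 (SE, adjusted p = 0.0817) did not pass with all arrays, and was -1.03 ± 0.25 without I3C 3 (adjusted p = 0.0399). It was -0.62 ± 0.18 without I3C 4 (adjusted p = 0.104) and -0.21 ± 0.17 with the beta-actin measure as a covariate (adjusted p = 0.624). The bile acid receptor Nr1h4, named after its value was seen, was 10.17 ± 0.14 in I3C livers and 10.71 ± 0.18 in vehicle livers, a fall of 0.54 on the log2 scale (SE 0.10, limma adjusted p = 0.00584).

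**Figure D4:**
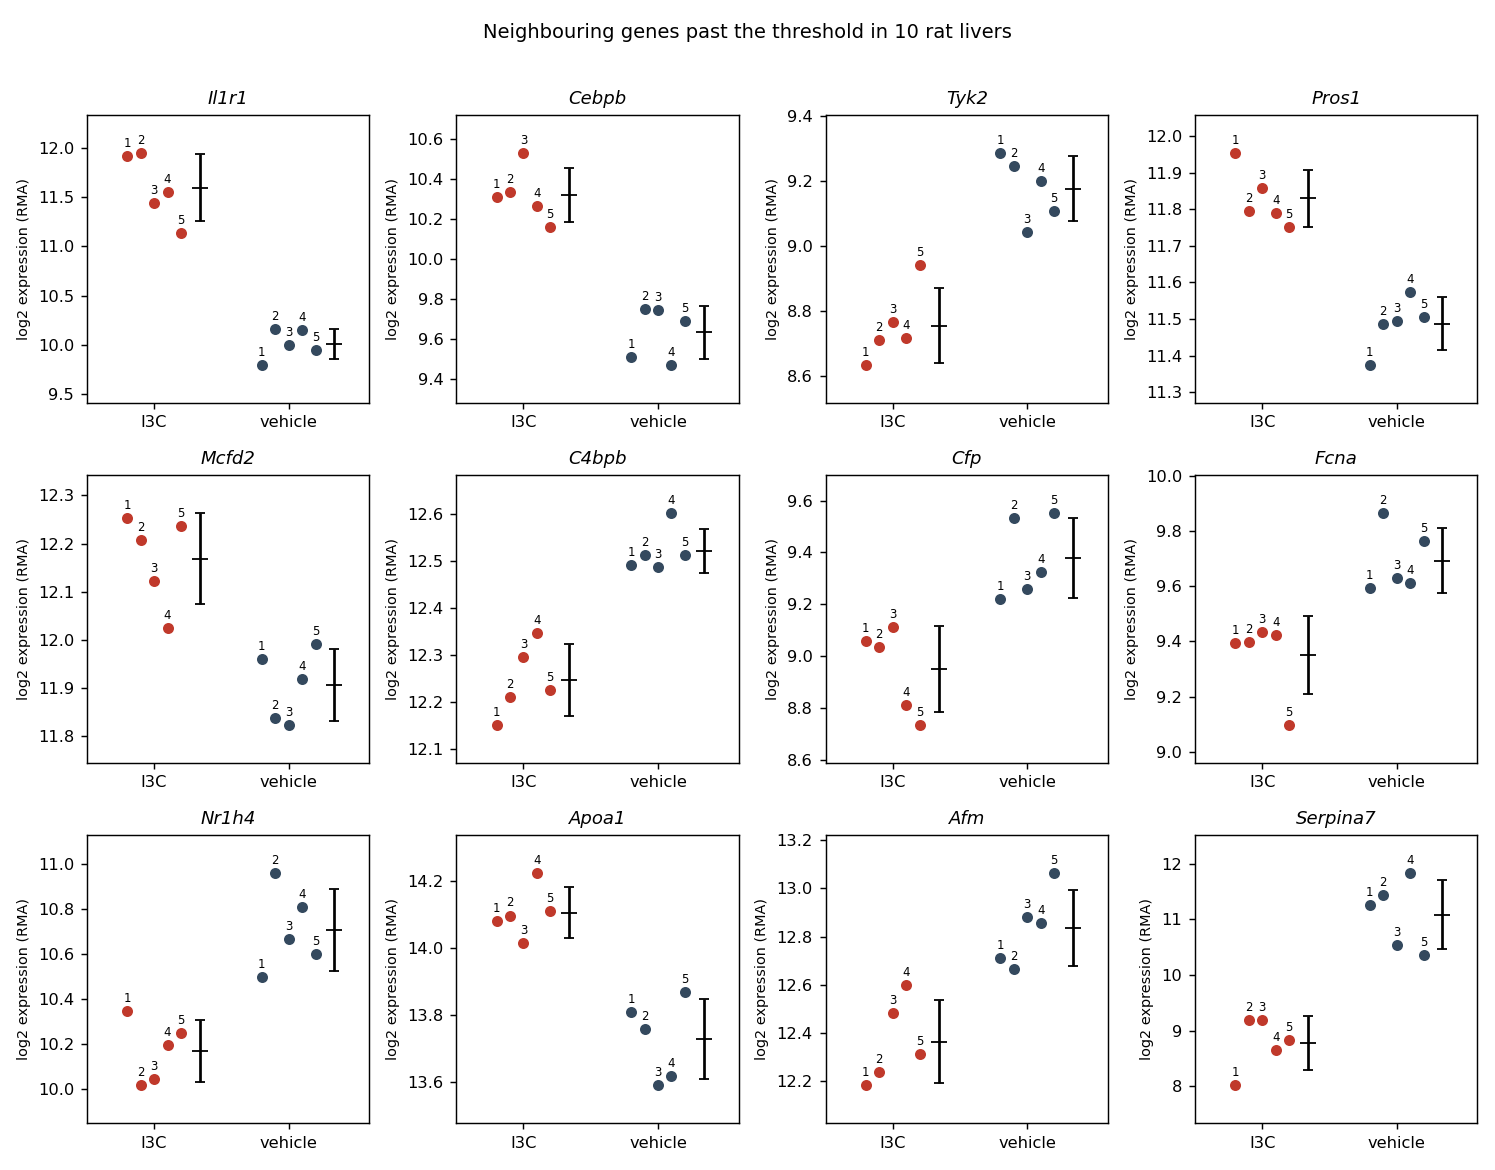
Log2 expression of 12 genes outside the member list by array, with I3C livers left and vehicle livers right; points are arrays with their replicate number and the bar gives the mean and SD (n = 5). The axes differ between panels and do not start at 0. The genes shown are the named neighbours that passed the threshold, a choice that favours groups that do not overlap. Hnf4a and Onecut1, which did not pass and whose groups overlap, are not shown. In all 12 genes the groups do not overlap, against 8.67% of all genes. Il1r1, Cebpb, Pros1, Mcfd2 and Apoa1 were higher in I3C livers and the others lower.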

How the data were processed

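Liver RNA of 10 rats was measured on rat whole-genome expression arrays, 5 per group. The authors' deposited values are log2 expression per probe set made with RMA, per the submitters' processing notes, and its version is not given in the sources used here. This method makes the arrays' distributions alike, so that a shift shared by all genes is removed, and it compresses folds of the brightest probe sets, many members among them.

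Of 31042 probe sets outside 57 controls, 20826 carry 1 gene in the platform annotation of 2016, 436 several and 9780 none, and 20758 took their symbol by Entrez ID from a RefSeq table on GRCr8. Each of 14217 genes was followed through its brightest probe set. I3C minus vehicle was tested with limma 3.58.1 under R 4.3.3, using lmFit and then eBayes with no trend (4.60 prior degrees of freedom). Tests were two-sided and p-values were adjusted after Benjamini and Hochberg over 31042 probe sets. A gene "rose" or "fell" where its adjusted p was under 0.05. The 3' minus 5' differences were tested by exact permutation of the samples. On simulated arrays for this comparison, over 31042 probe sets, the fit found 92.5% of 67 probe sets given a 1.5-fold change. It found 100% of 67 at 2-fold and 100% of 66 at 4-fold, and made 10 false calls. The simulated noise was normal and independent between probe sets, with no array effect and no group difference in RNA quality. Recovery in the real arrays may therefore be lower.

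The members and lists were chosen with earlier results of these data known. All measured members are named, and each neighbouring list adds its largest called differences, 4 at most, or its 2 brightest genes if under 2 were called. Alternatives were an intensity trend with robust moderation, a block for replicate number, leaving out dim probe sets, other scalings, array weights, no moderation, averaging all probe sets of a gene, the 3' minus 5' differences as covariates, a threshold of 0.01 and leaving out each array. No array was a copy of another: pairs correlated at 0.983 to 0.997, and their differences had an SD of 0.17 or more. Promoter windows come from RefSeq on GRCr8 and were matched by symbol for 32 of 36 members.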

Additional observations from a re-analysis of the deposited data

Results flagged for a closer look

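In 4 of 104 groups of 5 arrays, 1 array lay apart from the other 4 by more than Dixon's critical share of the group's range, 0.71, where chance gives about 1 in 20 groups. Of the 72 groups that belong to members, 2 were among them. A2m was highest in I3C 4, where the gap to the next I3C array took 0.770 of the range. Masp1 was lowest in I3C 5, with a gap of 0.740 of the range. Among the neighbouring genes, Fcna was lowest in I3C 5, with a gap of 0.882 of the I3C range, and C4bpb was highest in vehicle 4, with a gap of 0.773 of the vehicle range. Without I3C 5 the Masp1 difference kept its call.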

How the results depend on the processing

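Over 50 named genes and up to 21 alternatives, 987 of 1049 values kept their side of the threshold, 59 lost the threshold and 3 gained it. None changed direction where a call was involved, and only called genes could lose the threshold. Changes of direction without a call are among the 987. With GAPDH as covariate, for example, A2m went from -0.60 to 0.01 and F2 from -0.05 to 0.02. Crp, Orm1, C5 and Masp1 kept their calls without any single array. The count of members called was 4, and 0 with GAPDH as covariate, 1 with beta-actin as covariate, 2 at a threshold of 0.01 and 4 to 5 leaving out single arrays, with C6 added without I3C 4. Acute phase members called were 2, against 1 with no moderation, 0 with GAPDH, 0 with beta-actin, 1 at 0.01 and 2 leaving out arrays. Without moderation Orm1 had an adjusted p of 0.0567. Complement members called were 2, against 0 with GAPDH, 1 with beta-actin, 1 over the mean of probe sets, 1 at 0.01 and 2 to 3 leaving out arrays. Clotting and carrier members called were 0 under all 21 alternatives.

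Other complement genes called were 3, against 0 with the replicate block, 1 with no moderation, 0 with GAPDH, 0 with beta-actin, 0 at 0.01 and 0 to 4 leaving out arrays: 0 without I3C 5, and 1 without vehicle 2, I3C 2 or I3C 4. Other clotting genes called were 2, against 4 with an intensity trend, 0 with the replicate block, 4 over probe sets with a mean of at least 6, 6 with array weights, 0 with GAPDH, 1 with beta-actin, 5 over the mean of probe sets, 1 at 0.01 and 1 to 4 leaving out arrays, with 4 without vehicle 5. Other carriers called were 3, against 1 with GAPDH, and 3 leaving out arrays. Signalling genes called were 3, against 2 to 4 over the other alternatives and 3 to 4 leaving out arrays. Liver factors called were 1, against 2 with a trend, 2 with the replicate block, 3 with the filter, 2 with quantile normalisation, 3 with array weights, 2 with beta-actin, 3 over the mean of probe sets and 1 to 2 leaving out arrays. The count of all genes called was 914, against 594 with no moderation, 228 with GAPDH, 498 with beta-actin, 437 at 0.01, 1343 with array weights and 651 to 1243 leaving out arrays. The GAPDH difference was -0.22, and -0.25 to -0.17 leaving out arrays. The cause of these changes was not tested.

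No pairing of the samples by replicate number was seen. Same-numbered arrays correlated at -0.28 to 0.22 in their deviations, and 2 of 10 lay closest to their own number. With so few arrays, this check cannot exclude a weak effect shared by same-numbered samples. The signal of Alb lies at the top of the table and that of Il6 near its lower end, where a small difference may be missed, which was not tested. The limit at the top may apply to all 28 members at or above the 99th percentile of probe sets by mean level.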
